A study of Homo sapiens with 6 samples.

Results

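Cytosolic sensors of foreign or misplaced nucleic acid were followed as a group of 10 genes among the 26899 genes counted in HK-2 cells. The genes were chosen by their symbols, as RIG-I-like receptors (DDX58, IFIH1, DHX58), the adaptor of those receptors (MAVS), double-stranded RNA and Z-form nucleic acid binders (EIF2AK2, ZBP1), an endosomal RNA receptor (TLR3), and DNA sensors with their adaptor (MB21D1, TMEM173, IFI16). They were picked with earlier results of the same contrast known, so their differences between the groups are given as a description and are not independent evidence. Of the 10 genes, 9 had enough reads to be tested and ZBP1 did not. In the current nomenclature DDX58 is RIGI, TMEM173 is STING1 and MB21D1 is CGAS.

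The study held 6 libraries of polyadenylated RNA, 3 labelled control and 3 labelled ANXA2 knockdown. HK-2 is an immortal cell line from human proximal tubule epithelium, transformed with human papillomavirus 16, and the protocol for all cells describes plasmid transfection with Lipofectamine 2000. The controls were titled wild type but described as shCtrl, so the labels do not settle whether they carried a control hairpin. The knockdown libraries were described as shANXA2. A single transformed line, handled with lipid and plasmid DNA, limits what these levels say about kidney tubule cells in general.

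In this pathway, RIG-I and MDA5 (the product of IFIH1) bind viral or misplaced double-stranded RNA in the cytosol and, through the mitochondrial protein MAVS, activate the kinases TBK1 and IKKε and the transcription factors IRF3 and IRF7. The DNA arm works in parallel, as cGAS makes the messenger cGAMP, which binds STING and activates the same kinases. Both arms lead to type I interferon, and several of the sensors are themselves induced by interferon, which makes them part of a feedback loop. TLR3 reads double-stranded RNA inside endosomes and signals through TICAM1, and PKR (the product of EIF2AK2) binds double-stranded RNA and stops translation by phosphorylating eIF2α.

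The labels and the cell type were examined first. The libraries held 24231267 to 34561675 counted reads. The targeted gene ANXA2 measured 1598 ± 119 CPM in the libraries labelled control and 1539 ± 21.3 CPM in those labelled knockdown (SD, n = 3; CPM is the read count scaled for library depth with TMM factors). Its edgeR estimate (log2 fold change ± SE) was -0.05 ± 0.075, with a p of 0.848 after Benjamini-Hochberg adjustment, so a loss of ANXA2 RNA was not detected and each difference below is one between labels. Of the tubule epithelial markers, the keratins KRT8 (850 to 1340 CPM) and KRT18 (444 to 625 CPM), the kidney factor PAX8 (343 to 677 CPM) and EPCAM (57.0 to 69.7 CPM) were present in all libraries. The mesenchymal filament VIM (1830 to 2210 CPM) and the cadherin CDH2 (132 to 175 CPM) were high, CDH1 had 2 to 16 reads, and the proximal tubule markers CUBN (0 to 12 reads), LRP2 (0 to 1 reads), AQP1 (0 to 4 reads) and SLC34A1 (5 to 22 reads) were at or near 0. Of 13 leukocyte markers, 8 were analysed, and their summed level was 5.17 to 8.06 CPM in the libraries labelled control and 7.03 to 11.1 CPM in those labelled knockdown. The defining markers PTPRC, CD3E and MS4A1 were not analysed here. Whether the leukocyte markers play a part in the sensor levels was not tested, and in bulk RNA fewer cells of a type and less RNA per cell cannot be told apart.

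The promoters were read because several of these sensors are known targets of interferon, whose transcription factors bind the interferon-stimulated response element (ISRE). RefSeq promoters (GRCh38.p14) were matched for 6 of the 10 genes, as windows of 300 bases from 250 before to 50 after the start site, and they were searched on both strands for the ISRE core, GAAANNGAAA, and for the interferon-gamma activated site (GAS), TTCNNNGAA. A GAAA repeat with 1 base between, GAAANGAAA, was added after the sequences were seen. The ISRE core was present in 3.57% of the 35116 promoters in the table, the GAS in 7.66% and the repeat with 1 base between in 3.12%. The sequences of DDX58, IFIH1 and EIF2AK2 are shown 5′ to 3′ on the strand of the gene up to 25 bases after the start site, because they show how the motif differs in place and spacing between RIG-I, MDA5 and PKR, with the matches in capitals. They lie at chr9:32526172-32526446 (minus strand), chr2:162318660-162318934 (minus strand) and chr2:37156956-37157230 (minus strand).
DDX58: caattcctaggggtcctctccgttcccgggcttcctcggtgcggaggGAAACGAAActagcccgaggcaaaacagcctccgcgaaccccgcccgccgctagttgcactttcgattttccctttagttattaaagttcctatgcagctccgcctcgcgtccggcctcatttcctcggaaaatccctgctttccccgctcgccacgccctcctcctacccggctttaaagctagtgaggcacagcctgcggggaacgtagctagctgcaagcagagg
IFIH1: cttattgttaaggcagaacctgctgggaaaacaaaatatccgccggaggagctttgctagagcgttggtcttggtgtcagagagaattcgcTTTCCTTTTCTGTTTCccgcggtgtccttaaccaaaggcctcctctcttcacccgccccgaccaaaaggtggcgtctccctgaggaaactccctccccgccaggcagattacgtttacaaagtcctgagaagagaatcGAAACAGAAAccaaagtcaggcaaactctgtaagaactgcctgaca
EIF2AK2: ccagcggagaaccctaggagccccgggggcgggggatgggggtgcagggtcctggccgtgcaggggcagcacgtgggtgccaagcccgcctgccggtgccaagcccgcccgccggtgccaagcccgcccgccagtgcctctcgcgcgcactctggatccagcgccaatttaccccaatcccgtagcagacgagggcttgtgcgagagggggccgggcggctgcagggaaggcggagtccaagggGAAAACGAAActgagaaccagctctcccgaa
IFIH1 held the ISRE core as GAAACAGAAA, beginning at position -21 from the start site, and 2 overlapping matches on the opposite strand, GAAACAGAAA at -153 and GAAAAGGAAA at -159. EIF2AK2 held it as GAAAACGAAA at -6. TLR3 held GAAAGTGAAA on the opposite strand at -4, and 2 GAS matches, TTCAATGAA at -178 and TTCTTGGAA at -50. DDX58 and IFI16 (the second of 2 start sites) held no ISRE core but the closer repeat GAAACGAAA, at -203 and -54. No match to these letters was found in the window of MAVS. The core was thus present in 3 of the 6 genes, and the core or the closer repeat in 5 of 6. The second count rests on a pattern chosen from these sequences, and its share over all promoters was not counted. These are counts of genes, whereas the shares above are of promoters. A match describes the letters only.

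To see which sensing arms HK-2 cells express, the genes were ordered by their deposited FPKM, which is scaled for transcript length. The order between genes therefore rests on the length assigned to each. In CPM, which is not scaled for length, EIF2AK2 (mean 74.06 over the 6 libraries) lay above IFI16 (57.87) and MB21D1 (50.18). MAVS (136.4) lay above all 3. By FPKM the DNA sensors IFI16 and MB21D1 and the adaptor MAVS were the most abundant. IFI16, which binds DNA in nucleus and cytosol, led with a mean of 18.63 ± 2.96 FPKM over the 6 libraries (SD, n = 6), followed by MB21D1 (cGAS) with 12.85 ± 1.44 FPKM and MAVS with 10.94 ± 0.847 FPKM. These were above 88.4%, 85.0% and 83.4% of the listed genes, many of which were too low to test. Among the tested genes they were above 79.7%, 73.7% and 71.0%. EIF2AK2 followed with 6.805 ± 0.986 FPKM. The RIG-I-like receptors and STING were lower, with means over both labels of 2.015 ± 0.405 FPKM for DDX58, 1.84 ± 0.233 for TMEM173, 1.67 ± 0.83 for IFIH1 and 1.56 ± 0.884 for DHX58. For IFIH1 and DHX58 the mean over both labels hides a difference, as they were at 0.95 ± 0.0265 and 0.86 ± 0.338 FPKM in the libraries labelled control and at 2.39 ± 0.408 and 2.26 ± 0.608 in those labelled knockdown (SD, n = 3). DDX58 was at 1.737 ± 0.14 and 2.293 ± 0.397 FPKM, and TMEM173 at 1.703 ± 0.208 and 1.977 ± 0.191. TLR3 reached 0.4317 ± 0.134 FPKM and ZBP1 was at 0.01 FPKM. The sensor of DNA was therefore far more abundant as RNA than STING, to which it signals, in every library.

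**Figure D1:**
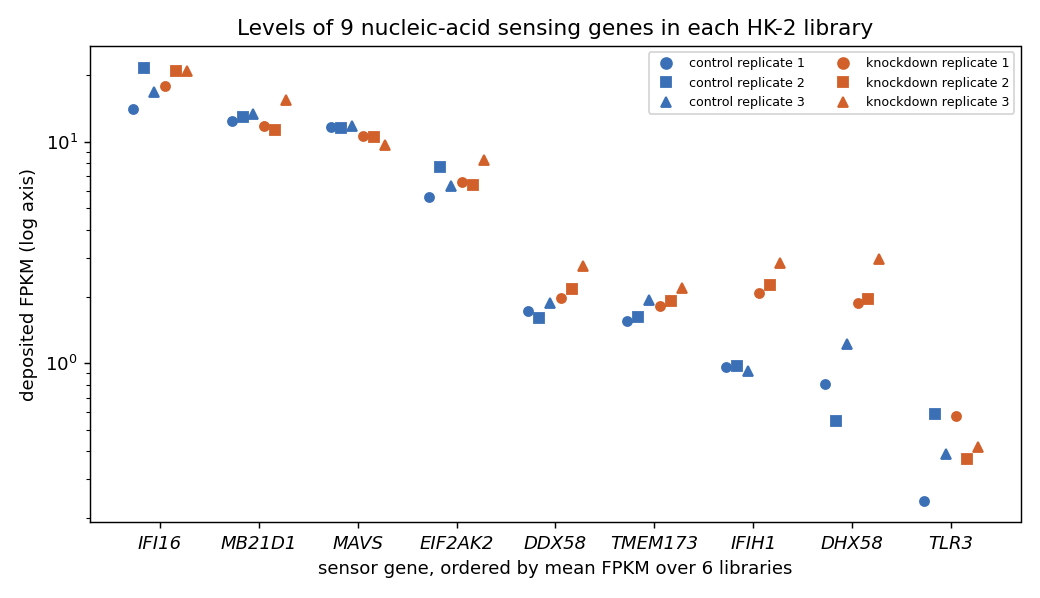
Deposited FPKM (log axis) of 9 nucleic-acid sensing genes in each of the 6 libraries, with colour for the label and shape for the replicate number. IFI16, MB21D1 and MAVS sit at the top, DDX58, TMEM173, IFIH1 and DHX58 share a lower band between 0.55 and 2.96 FPKM, and the points of IFIH1 and DHX58 fall into 2 bands by label.

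Neighbours in this order were compared by their ranges over the 6 libraries. IFI16 and MB21D1 overlapped, as did MB21D1 and MAVS, although within each library the first was above the next in 6 of 6 libraries. Over the 6 libraries the ranges of DDX58, TMEM173, IFIH1 and DHX58 overlapped, and the first of each neighbouring pair was the higher in 4, 3 and 4 of 6 libraries. DHX58 and TLR3 also overlapped, with DHX58 higher in 5 of 6. The ranges of MAVS and EIF2AK2, of EIF2AK2 and DDX58, and of TLR3 and ZBP1 did not overlap. Within a label the order was sharper. IFI16, MB21D1 and MAVS did not overlap in either label. In the libraries labelled control DDX58 and TMEM173 overlapped each other and lay above IFIH1 and DHX58, which overlapped each other, whereas in those labelled knockdown all 4 overlapped.

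The comparison of the libraries labelled knockdown with those labelled control was then made for the 9 tested genes, in the fit over all 15299 tested genes. The 3 RIG-I-like receptors were higher in the libraries labelled knockdown (2.529-fold for IFIH1, 2.644-fold for DHX58 and 1.333-fold for DDX58). Their adaptor MAVS was slightly lower, and the 5 other tested genes had overlapping groups. None of the 9 passed a Benjamini-Hochberg adjusted p of 0.05 in edgeR, where 0 of all tested genes passed (0.0%; smallest adjusted p 0.131). The groups did not overlap with the libraries labelled knockdown higher for 3 of the 9 sensors, against 7.93% of all tested genes, and with them lower for 1 of the 9, against 7.7%. At an unadjusted p under 0.05, 3 sensors were higher, against 3.86% of all tested genes, and 1251 tested genes passed in either direction. Estimates were above 0 for 8 of the 9 sensors and for 49.0% of the tested genes, with medians of 0.2 and -0.0065 on the log2 scale. When 1 library was omitted, the sensor median ranged from 0.0719 (control replicate 1 omitted) to 0.352 (control replicate 2 omitted). DESeq2 called 2 sensors higher, IFIH1 and DHX58, and 0.17% of its genes higher, and edgeR without the low-count filter called the same 2, against 0.424% of its genes. These shares describe genes that were picked with the contrast in view.

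**Figure D2:**
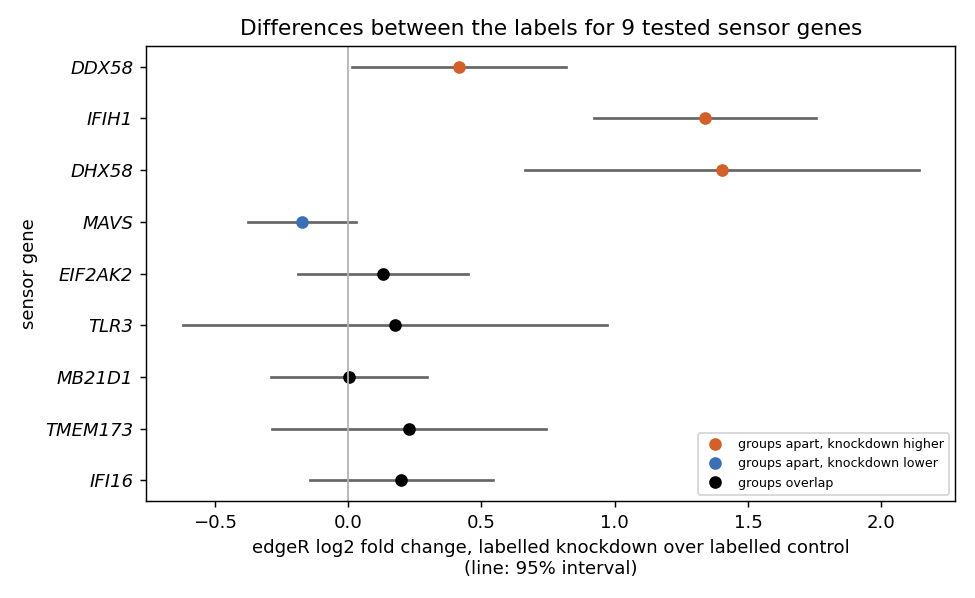
Log2 fold change of 9 sensor genes, libraries labelled knockdown over those labelled control, as points with 95% intervals from edgeR, coloured by whether the groups of 3 libraries overlapped. The intervals of IFIH1 and DHX58 lie well above 0, that of DDX58 just above it, and the interval of each of the other 6 genes spans 0.

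IFIH1 (ENSG00000115267.5, chromosome 2 from 162267074 to 162318684, minus strand, in GRCh38) encodes MDA5, which prefers long double-stranded RNA. It had 105, 140 and 128 reads in the libraries labelled control and 318, 335 and 366 in those labelled knockdown. After scaling these were 4.304, 4.283 and 4.109 CPM against 9.319, 10.15 and 12.68 CPM. The lowest library labelled knockdown was 2.165 times the highest labelled control. Means were 4.232 ± 0.107 and 10.71 ± 1.75 CPM (SD, n = 3), and the edgeR estimate was 1.34 ± 0.185 log2 units (SE), with a 95% interval of 1.894 to 3.377 on the fold (adjusted p = 0.156). By unadjusted p it ranked 3 of the 15299 tested genes. The 3 control libraries varied by 2.53% of their mean, less than the 8.97% that counting error alone gives. The adjusted p of IFIH1 spanned 5.96e-06 (DESeq2) to 0.731 over the alternatives, and its log2 fold change stayed between 0.79 and 1.43.

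DHX58 (ENSG00000108771.12, chromosome 17 from 42101404 to 42112714, minus strand) encodes LGP2, which lacks the signalling domains of the other RIG-I-like receptors and modulates them. It had 55, 49 and 105 reads in the libraries labelled control and 179, 180 and 236 in those labelled knockdown, or 2.255, 1.499 and 3.371 CPM against 5.245, 5.451 and 8.174 CPM. The groups did not overlap, although control replicate 3 stood well above control replicate 2. Means were 2.375 ± 0.942 and 6.29 ± 1.63 CPM (SD, n = 3), with an edgeR estimate of 1.40 ± 0.328 log2 units (SE), with a 95% interval of 1.585 to 4.41 on the fold (adjusted p = 0.599). Control libraries varied by 39.6% of their mean and counting error gives 12.0%. The adjusted p was 0.0226 in DESeq2, and the alternatives gave 0.000725 to 0.988.

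DDX58 (ENSG00000107201.9, chromosome 9 from 32455302 to 32526208, minus strand) encodes RIG-I, which recognises short double-stranded RNA with a 5′ triphosphate. It had 195, 237 and 269 reads against 314, 332 and 364, which scaled to 7.994, 7.25 and 8.635 CPM in the libraries labelled control and 9.201, 10.05 and 12.61 CPM in those labelled knockdown. The groups were apart by a narrow margin, as the lowest library labelled knockdown was 1.066 times the highest labelled control. The edgeR estimate was 0.415 ± 0.178 log2 units (SE), with a 95% interval of 1.009 to 1.762 on the fold (adjusted p = 0.608), within 0.415 to 0.988 over the alternatives. Of all exon bases of DDX58, 43.2% are shared on the same strand with 1 other annotated gene that was not in the table, so assignment of its reads is uncertain.

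MAVS (ENSG00000088888.17, chromosome 20 from 3846799 to 3876123, plus strand) relays the signal of these receptors from the outer mitochondrial membrane. It had 146.4, 140.9 and 146.3 CPM in the libraries labelled control and 133.0, 132.0 and 119.7 CPM in those labelled knockdown, from 3457 to 4606 reads per library. All 3 libraries labelled knockdown lay below all 3 labelled control. Means were 144.5 ± 3.11 and 128.3 ± 7.4 CPM (SD, n = 3), and the edgeR estimate was -0.17 ± 0.0899 log2 units (SE), with a fold of 0.8876 (95% interval 0.7713 to 1.021; adjusted p = 0.631).

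**Figure D3:**
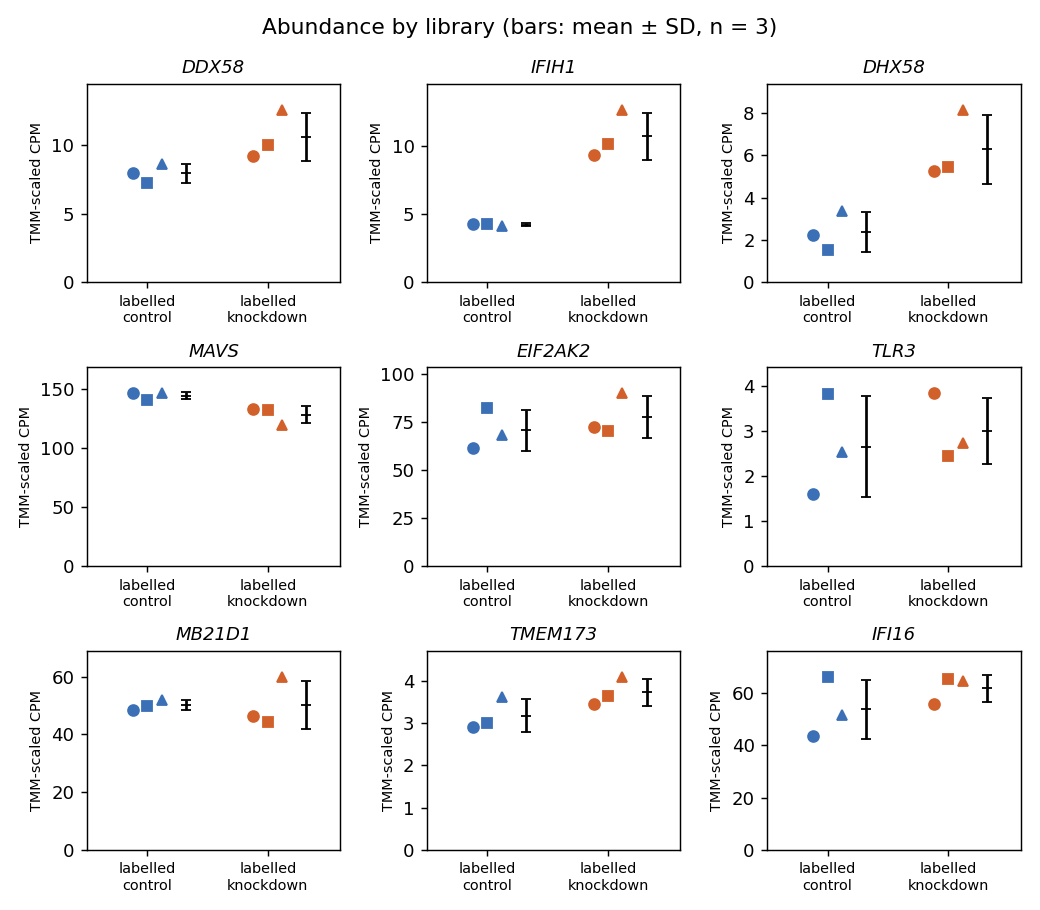
TMM-scaled CPM of the 9 tested sensor genes in each of the 6 libraries by label, with black bars for the mean ± SD (n = 3). The points of IFIH1, DHX58 and DDX58 are higher in all 3 libraries labelled knockdown, those of MAVS lower, and the others overlap.

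In order to see how the members stood to each other within a library, ratios of their FPKM were taken. IFIH1 over DDX58 was 0.555, 0.606 and 0.489 in the libraries labelled control and 1.05, 1.04 and 1.04 in those labelled knockdown. MDA5 RNA thus lay below RIG-I RNA in each library labelled control and about level with it in each labelled knockdown. The latter held 318, 335 and 366 reads of IFIH1 against 314, 332 and 364 of DDX58. These gaps are within the counting error of 5.43% and 5.45%. DHX58 over DDX58 was 0.468, 0.344 and 0.649 against 0.944, 0.903 and 1.08. MAVS over the sum of the 3 receptors was 3.34, 3.68 and 2.93 against 1.78, 1.65 and 1.13. None of these ratios overlapped between the labels, and they are built from the same values as the differences above. MB21D1 over TMEM173 was 7.62 ± 0.643 against 6.45 ± 0.57 (SD, n = 3) and overlapped between the labels, and IFI16 over MB21D1 also overlapped.

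**Figure D4:**
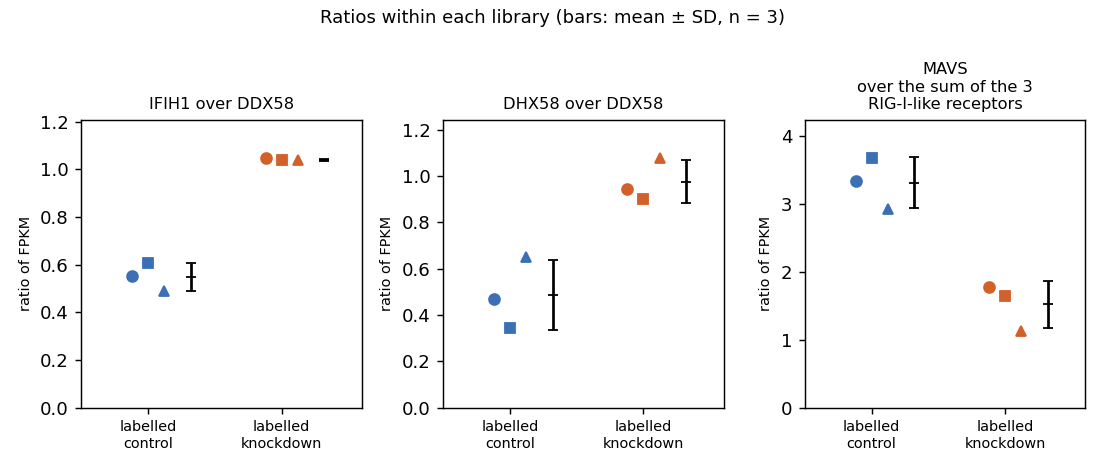
Ratios of FPKM within each library for IFIH1 over DDX58, DHX58 over DDX58, and MAVS over the sum of DDX58, IFIH1 and DHX58, with black bars for the mean ± SD (n = 3). The first ratio is 0.55 ± 0.0586 in the libraries labelled control and 1.04 ± 0.00273 in those labelled knockdown, and the last is 3.31 ± 0.378 and 1.52 ± 0.347. The SD of 0.00273 is smaller than counting error alone gives, which is 5.43% for IFIH1 and 5.45% for DDX58.

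EIF2AK2 (ENSG00000055332.16, chromosome 2 from 37099210 to 37157522, minus strand) encodes PKR. It had 61.29, 82.17 and 68.51 CPM in the libraries labelled control and 72.18, 70.23 and 89.98 CPM in those labelled knockdown. The groups overlapped. The edgeR estimate was 0.13 ± 0.141 log2 units (SE), with a 95% interval of 0.8787 to 1.366 on the fold (adjusted p = 0.8), so the interval allows a difference of up to 1.366-fold. ZBP1 (ENSG00000124256.14), which binds Z-form nucleic acid and can trigger necroptosis, had 0, 3 and 0 reads against 0, 0 and 2. With 5 reads in all it was not tested, and it was at or under the level of 3 reads per library, 0.0879 to 0.123 CPM, that a count of 0 allows.

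TLR3 (ENSG00000164342.12, chromosome 4 from 186068911 to 186088073, plus strand) senses double-stranded RNA in endosomes. It had 39, 125 and 79 reads in the libraries labelled control and 131, 81 and 79 in those labelled knockdown, or 1.599, 3.824 and 2.536 CPM against 3.839, 2.453 and 2.736 CPM. Replicates within a group differed by more than the groups did. The edgeR estimate was 0.175 ± 0.353 log2 units (SE), with a 95% interval of 0.6502 to 1.96 on the fold (adjusted p = 0.901). Leaving out control replicate 1 turned the estimate to -0.0766, and leaving out knockdown replicate 1 turned it to -0.0377.

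In the DNA arm the groups overlapped for each gene. MB21D1 (ENSG00000164430.15, chromosome 6 from 73413515 to 73452297, minus strand) encodes cGAS, and had 48.5, 49.84 and 51.97 CPM in the libraries labelled control and 46.53, 44.43 and 59.81 CPM in those labelled knockdown. Knockdown replicate 3 was high and the other 2 were below every control library. The edgeR estimate was 0.0040 ± 0.13 log2 units (SE), with a 95% interval of 0.8189 to 1.228 on the fold (adjusted p = 0.994), and its sign changed with the processing. TMEM173 (ENSG00000184584.12, chromosome 5 from 139475533 to 139482935, minus strand) encodes STING and had 71, 98 and 113 reads against 118, 120 and 118. In CPM these were 2.911, 2.998 and 3.628 against 3.458, 3.634 and 4.087, and the groups overlapped, with an edgeR estimate of 0.227 ± 0.228 log2 units (SE; adjusted p = 0.788).

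IFI16 (ENSG00000163565.18, chromosome 1 from 158999968 to 159055155, plus strand), an interferon-inducible DNA binder, had 43.74, 66.08 and 51.75 CPM in the libraries labelled control and 55.94, 65.23 and 64.49 CPM in those labelled knockdown. Control replicate 2 was the highest of the 6 libraries and control replicate 1 the lowest, so the groups overlapped. The edgeR estimate was 0.20 ± 0.153 log2 units (SE), with a 95% interval of 0.9045 to 1.458 on the fold (adjusted p = 0.72). The overlap of exon bases with other annotated genes on the opposite strand was 8.03% for IFI16, 4.31% for MB21D1 and up to 3.63% for EIF2AK2, and the sources used here do not say whether reads were counted by strand.

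The other genes of the pathway were taken from 6 lists with 85 members, of which 75 were in the table and 68 were tested. None passed an adjusted p of 0.05 in edgeR. The groups were apart with the libraries labelled knockdown higher for 10 of the 68, against 7.93% of all tested genes, and lower for 2, against 7.7%. An unadjusted p under 0.05 in either direction was found for 10 of the 68, against 8.18% of all tested genes, and an estimate above 0 for 41, against 49.0%. The same shares over all tested genes are the background of the counts of each list that follows. Their median log2 fold change was 0.0359, against -0.0065 over all tested genes and 0.2 over the sensors.

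Among 20 RNA sensor cofactors and E3 ligases, 3 were apart and higher (7.93% over all tested genes) and 1 was apart and lower (7.7%), with a median log2 fold change of 0.0188. TRIM25, the ligase that ubiquitinates RIG-I, was 92.97 ± 6.75 CPM in the libraries labelled control and 130.1 ± 14.1 CPM in those labelled knockdown (SD, n = 3), with an edgeR estimate of 0.485 ± 0.11 log2 units (SE; adjusted p = 0.599). DDX60, a helicase described as a cofactor of RIG-I, was 2.825 ± 0.652 CPM against 5.135 ± 0.436 CPM, with a estimate of 0.855 ± 0.244 log2 units (SE; adjusted p = 0.599). Of 19 tested DNA sensors and regulators of the cGAS-STING arm, 3 were apart and higher, against the same 7.93%, and 1 lower, against 7.7%, with a median of 0.073. SAMHD1, a dNTP hydrolase that limits nucleic acid in the cytosol, was 26.24 ± 1.34 CPM against 41.18 ± 7.55 CPM, with a estimate of 0.65 ± 0.145 log2 units (SE; adjusted p = 0.583). DDX41, another helicase reported to sense DNA, was 81.5 ± 10.8 CPM against 98.68 ± 2.1 CPM, with a log2 fold change of 0.276. Named after their values were seen, the other genes with groups apart were RIOK3 (40.25 against 47.59 CPM) and TRIM32 (34.64 against 37.77 CPM) on the higher side. On the lower side were DDX3X, a helicase that takes part in signalling through MAVS (230.0 ± 22.1 against 178.8 ± 11.8 CPM), and SURF4, which returns STING to the endoplasmic reticulum (469.9 ± 5.47 against 442.6 ± 18.4 CPM).

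The list of endosomal Toll-like receptors held 6 tested genes, which were adaptors and helper proteins and not the receptors themselves. TLR7 had 2 reads in the libraries labelled control against 0, and TLR9 had 0 against 7, too few to be tested. TLR8 was not among the counted genes. These receptors were named after their values were seen. Of the 6 tested genes, 2 were apart and higher, against 7.93% of all tested genes, and 5 had estimates above 0, against 49.0%. Their median was 0.297. UNC93B1, which carries these receptors to the endosome, was 30.3 ± 2.15 CPM in the libraries labelled control and 43.43 ± 3.65 CPM in the others (SD, n = 3), with an estimate in edgeR of 0.52 ± 0.116 log2 units (SE; adjusted p = 0.583). TICAM1, the adaptor of TLR3, was 28.51 ± 10.6 CPM against 35.83 ± 7.52 CPM and its groups overlapped. Of 19 tested adaptors and kinases, 2 were apart and higher and 0 lower, counts near the 7.93% and 7.7% over all tested genes, with a median of 0.0249. IRF7, the interferon-inducible factor that amplifies interferon output, was 5.813 ± 2.83 CPM against 14.49 ± 3.38 CPM, with an edgeR estimate of 1.33 ± 0.341 log2 units (SE; adjusted p = 0.599), within 6.23e-07 to 0.988 over the alternatives. IKBKE, which encodes IKKε, was 11.09 ± 4.8 CPM against 16.75 ± 4.68 CPM and overlapped. The other genes with groups apart in these lists were SLC15A4, a lysosomal transporter needed for endosomal receptor signalling (35.65 against 43.97 CPM), and IRF5 (12.4 against 14.73 CPM). IRF3, the constitutive counterpart of IRF7, was, like both of them, named after its values were seen and measured 67.08 and 67.21 CPM. The 3 eIF2α kinases other than PKR all had estimates below 0, with a median of -0.13 and overlapping groups. They include EIF2AK1, the heme-regulated kinase (140.8 ± 9.01 against 127.8 ± 2.85 CPM), and EIF2AK3, the kinase PERK of the endoplasmic reticulum (19.51 ± 1.47 against 17.83 ± 3.39 CPM).

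**Figure D5:**
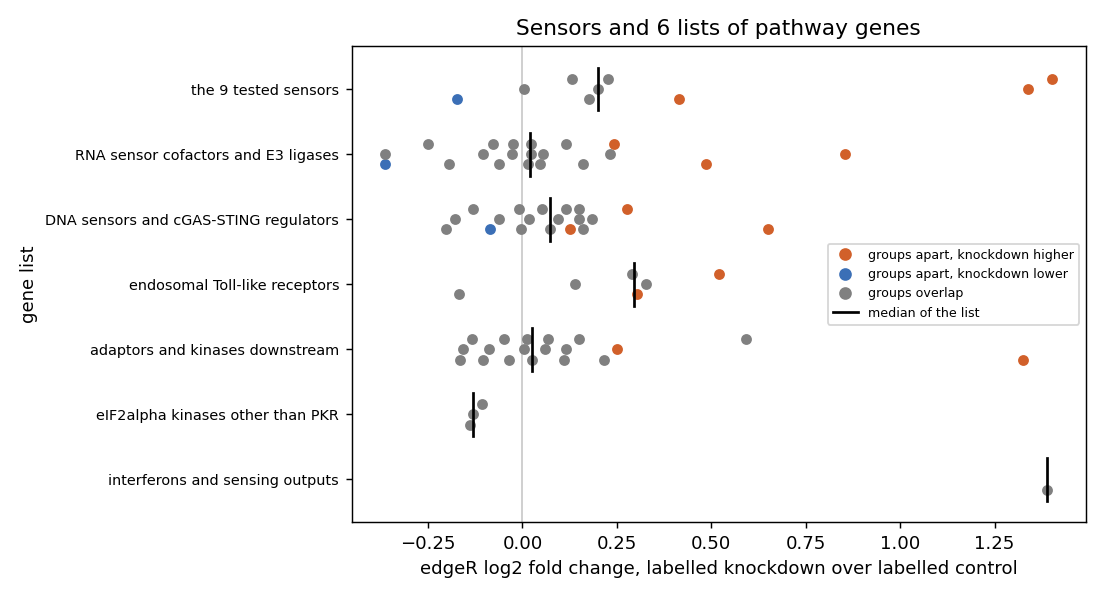
Log2 fold changes from edgeR of the 9 tested sensors and of the tested members of 6 pathway lists, libraries labelled knockdown over those labelled control, coloured by whether the groups of 3 libraries overlapped, with black lines for list medians. Most points lie near 0, and IFIH1, DHX58, IRF7 and CCL5 stand to the right of 1.

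The interferons and chemokines at the end of these arms were barely detected. Of 11 genes, 5 were in the table and only CCL5, a chemokine induced by IRF3 and NF-kB, could be tested. It had 6, 16 and 8 reads in the libraries labelled control and 38, 42 and 7 in those labelled knockdown, and the groups overlapped because knockdown replicate 3 was low. Its edgeR estimate was 1.39 ± 0.674 log2 units (SE; adjusted p = 0.615). The others were named after their values were seen. IFNB1, the interferon that both arms induce first, had 0 reads in each library labelled control and 1, 3 and 0 in those labelled knockdown, IFNL3 had 2 reads in all against 11, IFNE 1 against 0 and CXCL10 0 against 1. These counts were too low to be tested.

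Correlations among the sensors are given as a description over 6 libraries that share the difference between the labels. They were high among the RIG-I-like receptors and near 0 for several other pairs. On log2 CPM, Pearson's r was 0.947 between DDX58 and DHX58, 0.9 between IFIH1 and DHX58 and 0.879 between DDX58 and IFIH1. With MAVS the r was -0.889 for DDX58, -0.935 for IFIH1 and -0.813 for DHX58. TMEM173 went with DDX58 at 0.901 and EIF2AK2 with IFI16 at 0.805. TLR3 had an r of -0.0321 with DDX58, 0.0457 with DHX58 and 0.004 with MB21D1, and MB21D1 had 0.142 with IFIH1 and 0.134 with IFI16. Of 13213 other genes of at least 1 CPM on average, MPPE1 (0.9908), EIF4A2 (0.9895) and CTA-384D8.36 (0.9892) were most like DDX58, and PECR (0.9914), 1 gene known by a clone name (0.9882) and DENND3 (0.9876) most like IFIH1. SLC31A2 (0.9979), RP3-522D1.1 (0.997) and COQ4 (0.9964) were most like DHX58, and QARS (0.9879), ZNF169 and MFAP3 most like MAVS. The genes most like EIF2AK2 were UFSP2, RNF149 and L3MBTL3, and those most like TLR3 were KCND1, RP11-231C14.4 and ZNF322. In the DNA arm they were CDK2AP1 (0.9968), CTC-524C5.2 and STRADB for MB21D1, TBC1D32, S100A5 and MOB3B for TMEM173, and SMIM14, TMEM67 and CUL4A for IFI16. With 6 libraries such values are common, as 14 to 102 genes passed an r of 0.95 for each sensor.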

How the data were processed

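Polyadenylated RNA of 3 libraries labelled control and 3 labelled knockdown was analysed. The authors deposited raw counts of reads per gene for 26899 genes and FPKM values for 26803 genes, which are fragments scaled for transcript length and library depth. The submitters' processing notes name bcl2fastq, TopHat2, edgeR and GRCh38. How reads were counted, with which annotation and strand setting, was not given in the sources used here, and multi-mapped or overlapping reads could therefore be assigned differently. The libraries were prepared as directional.

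The counts entered a quasi-likelihood test in edgeR 4.0.16 (R 4.3.3) with TMM scaling and the default low-count filter (minimum count 10, total 15). 15299 genes were tested in 1 two-sided model without covariates, and p-values were adjusted over all of them by the method of Benjamini and Hochberg (threshold 0.05). DESeq2 1.42.0 and limma 3.58.1 were used as alternatives, with pseudocounts of 1 and 0.1 on the log2(FPKM + pseudocount) scale. The main test was tested on simulated data. The labels do not say that replicates are separate cultures, so p-values measure only the spread between these samples. Within groups replicates differed beyond sampling noise (chi-square per degree of freedom 10.34 to 54.18). Intervals and the floor of 3 reads cover counting or model error only.

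The members, the 6 pathway lists and the motifs were chosen with earlier results of these data known. All 10 members, ANXA2, the 2 members of each list with the largest absolute log2 fold change and the 3 genes most like each member were to be named, and other genes are named as chosen after their values were seen. Coordinates are those of GENCODE release 44, in which 26125 gene identifiers were found. Promoters are from RefSeq (GRCh38.p14). No promoter was matched for 4 members, DHX58, TMEM173, MB21D1 and ZBP1, so motifs were not read for them.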

Additional observations from a re-analysis of the deposited data

How the results depend on the processing

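At an adjusted p threshold of 0.05 edgeR called 0 genes with 1251 at an unadjusted p under 0.05, 165 without the low-count filter and 31 in DESeq2, and leaving out 1 library gave 0 to 4. Without the filter the prior degrees of freedom were infinite, against 5.234, so all genes shared 1 spread around the trend, and 0.424% of genes were called higher. The sensors past it numbered 0, and 2 without the filter or in DESeq2 (IFIH1 and DHX58 in both). The pathway genes past it numbered 0, 4 without the filter (IRF7, SAMHD1, TRIM25 and UNC93B1) and 2 in DESeq2 (IRF7 and SAMHD1). Why these tools differed was not tested.

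Of 144 estimates of the 9 tested sensors under alternatives, 130 stayed on the same side of 0 and of the threshold, 4 became significant and 10 changed sign. The sign changes were in MB21D1 and TLR3 only. For MB21D1 the log2 fold change was -0.0181 with library size only, -0.0147 with limma-voom, -0.0203 with FPKM + 1, also without a filter, -0.0225 with FPKM + 0.1 and -0.00737 with a replicate block, and leaving out 1 library gave -0.138 to 0.0887. For TLR3 leaving out 1 library gave -0.0766 to 0.537. The cause was not tested.

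After the data were seen, the number of sensors whose groups did not overlap was recounted without each library in turn. It spanned 3 to 5 for higher (5 without control replicate 2) and 1 to 2 for lower (2 without knockdown replicate 3). Fewer libraries make such groups more frequent for any gene, and over all tested genes the shares were 10.7% for higher without control replicate 2 and 15.1% for lower without knockdown replicate 3. The same-numbered libraries did not deviate together (r -0.0616, 0.118 and -0.203), and differently numbered ones spanned -0.226 to 0.217. These values show no pairing by number. They cannot exclude it, because deviations were taken from the mean of only 3 libraries per group. With a replicate block edgeR called 0 genes (1076 at an unadjusted p under 0.05), and IFIH1 had a log2 fold change of 1.33 and an adjusted p of 0.325. ANXA2 kept its direction under all 16 alternatives, but its log2 fold change was only -0.113 to -0.0175. The smallest adjusted p was 0.763 (edgeR with library size only), so a loss of ANXA2 RNA was detected in none of them. The control libraries of DHX58 varied by 39.6% of their mean where counting error gives 12.0%.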
